A study of Homo sapiens with 9 samples.

Results

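This comparison set human embryonic stem cells (hESC) that had spent 14 days in a serum-free medium called DFNB, with no FGF added, against the same lines before differentiation. Its members were 6 of the 9 arrays of the series, 3 labelled hESC (day 0) and 3 labelled DFNB (day 14), chosen by those labels and paired by the cell line in the sample title. The remaining 3 arrays, DFNB medium plus 50 ng/ml of both FGF3 and FGF10, entered only through the estimate of the spread. The lines were Shef3, H14 and Shef1, 3 established hESC lines, each with 1 array per group, and values are given in that order throughout. Cells of the hESC group grew on inactivated mouse embryonic fibroblast feeders in a serum replacement medium with basic FGF at 4 ng/ml. For the DFNB group such cells were dissociated with trypsin, plated on plastic coated with laminin, and fed DMEM and F12 with the N2 and B27 supplements. Feeders, substrate, medium, basic FGF and time therefore all differ between the groups, and their effects cannot be told apart. In all 19775 genes were compared, each by 1 probe set.

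Human pluripotent cells are held in their state by a core of transcription factors, among them OCT4, SOX2 and NANOG, and by FGF and activin or NODAL signals from the medium and the feeders. When those signals are withdrawn and no serum is given, pluripotent cells tend to move towards ectoderm, first neuroectoderm and, at its border, the preplacodal ectoderm and neural crest. The preplacodal ectoderm gives rise to lens, nose and inner ear, and its regulators include the EYA and DLX families. BMP and WNT signals help set the border between neural plate and epidermis.

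Before the tests, the promoters of 4 of the genes with the largest changes show in letters what the end of the report counts over all called genes. CLSTN2 and TMEFF2 rose and S100A14 and HTATIP2 fell. They are the 2 largest rises and the 2 largest falls with a single start site in the RefSeq table and a promoter that could be printed, among the 24 genes that head the results below (mean of 6 or more in the higher group). Each line gives the 250 bases before the start on the gene's strand, 5′ to 3′, from RefSeq on GRCh38.p14, with each CG in capitals.
CLSTN2: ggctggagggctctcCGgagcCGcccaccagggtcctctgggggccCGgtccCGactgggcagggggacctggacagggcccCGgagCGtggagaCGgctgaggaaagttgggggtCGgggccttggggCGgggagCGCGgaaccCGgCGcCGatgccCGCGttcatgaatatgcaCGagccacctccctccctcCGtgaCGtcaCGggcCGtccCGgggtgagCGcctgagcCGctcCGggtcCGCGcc
TMEFF2: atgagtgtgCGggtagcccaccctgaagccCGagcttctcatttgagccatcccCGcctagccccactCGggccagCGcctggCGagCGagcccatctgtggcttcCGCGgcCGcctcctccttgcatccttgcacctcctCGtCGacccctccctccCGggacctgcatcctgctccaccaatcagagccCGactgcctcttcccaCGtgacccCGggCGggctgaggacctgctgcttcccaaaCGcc
S100A14: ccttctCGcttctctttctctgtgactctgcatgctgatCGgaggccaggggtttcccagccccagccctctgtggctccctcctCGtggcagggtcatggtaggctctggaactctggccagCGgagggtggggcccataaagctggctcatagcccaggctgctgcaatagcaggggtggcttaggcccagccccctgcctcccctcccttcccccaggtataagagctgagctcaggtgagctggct
HTATIP2: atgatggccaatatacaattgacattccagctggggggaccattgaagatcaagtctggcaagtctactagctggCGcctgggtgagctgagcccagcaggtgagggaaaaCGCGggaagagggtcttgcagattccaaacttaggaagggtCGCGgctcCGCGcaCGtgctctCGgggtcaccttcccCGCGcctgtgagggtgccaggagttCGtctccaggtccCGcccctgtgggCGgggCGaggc
CG, a palindrome read alike on both strands, occurs 27 times before CLSTN2 (chr3:139934935-139935184, plus strand) and 18 times before TMEFF2 (chr2:192194934-192195183, minus strand). It occurs 4 times before S100A14 (chr1:153616326-153616575, minus strand) and 15 times before HTATIP2 (chr11:20363464-20363713, plus strand). The median over all genes tested with 1 start in the table was 18.

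The values are on a log scale, taken as log2, and every array has a median of 3.20. They have no lower bound, and the median spread within a group was 0.894 (SD) for genes with a mean below 0 against 0.275 for genes above 10, so a low value carries more noise. Across genes, 2 arrays correlated at 0.901 to 0.977, although genes are not replicates. The GAPDH control probes read 0.33 ± 0.17 (SD, n = 3) higher at the 3′ end than at the 5′ end in hESC and 0.19 ± 0.01 in DFNB (exact two-sided permutation test, p = 0.1, which is the lowest this design can give). The poly-A spike-ins, added before labelling, averaged 7.50 and 7.43 on the hESC and DFNB arrays of Shef1 and 5.23 to 5.72 on the other 4. They thus differed by line rather than by group. The labels name separate lines but not separate cultures, so p-values measure the spread between these arrays.

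The labelled state of the day 0 cells was set against its markers. NANOG, a core pluripotency factor, stood at 11.10, 10.21 and 10.73 in hESC and at -10.17, 6.33 and 9.64 in DFNB. SOX2, shared by pluripotent and neural cells, stood at 11.13, 11.04 and 11.11, then at 7.91, 8.92 and 10.63. Both were high on every hESC array. Among the DFNB arrays both were highest in Shef1 and lowest in Shef3, and for NANOG Shef3 lay far from the other 2. Neither passed the test (limma adjusted p = 0.252 and 0.129). LIN28B, an RNA-binding protein of growing embryonic cells, differed by -0.68 ± 0.47 (SE) with adjusted p = 0.435. The early neural factor PAX6 stood at 3.61, 5.79 and 5.03 in hESC and at 9.61, 6.44 and 10.00 in DFNB, with no overlap but adjusted p = 0.104. CDH1 (E-cadherin) differed by -0.95 ± 0.37, while CDH2 (N-cadherin), VIM (vimentin) and NES (nestin) differed by 0.20 ± 0.28, 0.10 ± 0.26 and -0.01 ± 0.47, and none of the 4 passed. In bulk arrays, fewer cells of a type and less RNA per cell cannot be told apart.

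Over 14 days in DFNB, single members of the lists for preplacodal ectoderm, neural border, lens, neural adhesion, axon guidance and the WNT pathway rose. Members of the lists for endoderm, pluripotency and the early embryo fell. With limma and the cell line as a block, 189 of 19775 genes (0.956%) were called at an adjusted p below 0.05, 100 higher (0.506%) and 89 lower in DFNB (0.45%). At that share most lists of the sizes used here would hold no call, so a list with none says little about its members. The sign was the same in all 3 lines for all 189, and the groups did not overlap for 182, against 22.1% of all genes. The test that chose them asks for like changes in the lines, so both follow largely from the choice. The median change was 2.84 among the higher genes and -3.09 among the lower, and the smallest was 1.56 in size. Of the 189, 163 code for protein, 23 are long non-coding RNAs and 3 are transcribed pseudogenes. Levels divided the 2 sides: 57 of the 100 higher genes reached a mean of 6 or more in the higher group, but only 18 of the 89 lower genes. Both group means lay below 4 for 15 higher and 39 lower genes.

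These calls rest on the spread pooled over all 9 arrays: 40 genes were called without the line block, 4 in a fit to the 6 arrays alone, and 0 when any line was left out, Shef3, H14 or Shef1, which lowers the residual degrees of freedom from 4 to 2. Averaging each gene's probe sets gave 236 calls, of which 131 were among the 189, and the named genes that lost their call there are ACTA2, ADAMTS18, APCDD1, APOB, BMP7, CNTN5, ENPP5, GATA4, GATM, HTATIP2, KCNE3, LYZ, SMARCD3, UNC5C and WNT5B. In each fit without a line all 189 genes kept their sign and an unadjusted p below 0.05, as did 3256, 2136 and 3988 genes over the whole table.

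**Figure D1:**
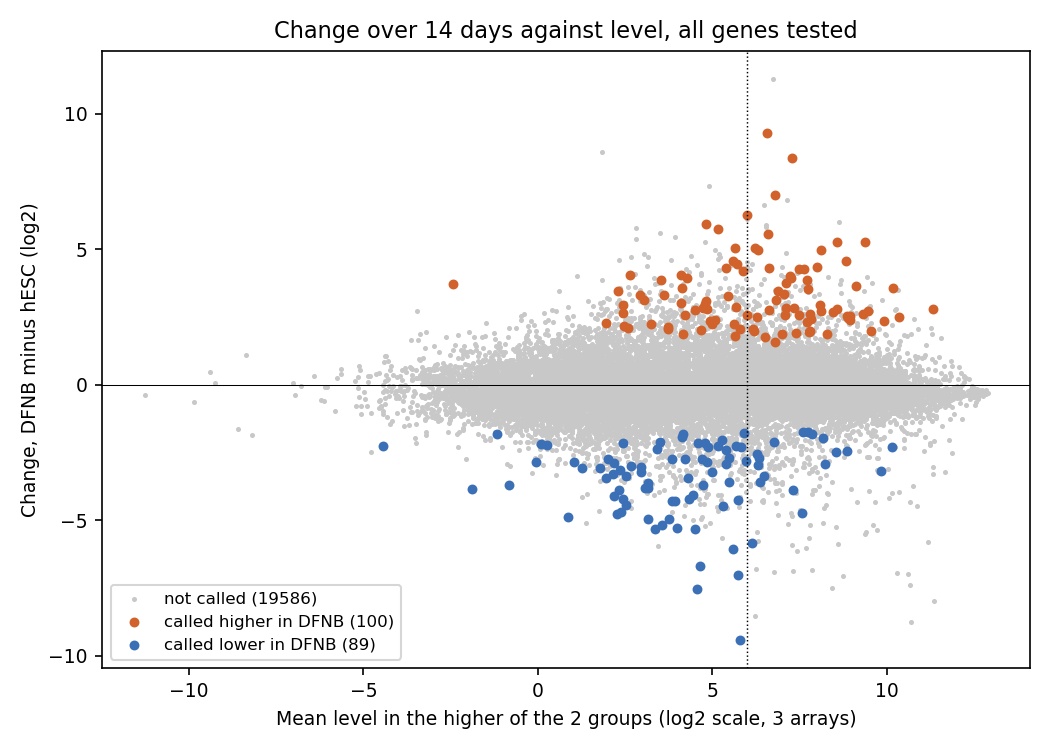
Each point is 1 of 19775 genes: the mean level in the higher of the 2 groups (log2 scale, 3 arrays) against the change, DFNB minus hESC (log2). Orange marks the 100 genes called higher and blue the 89 called lower. The dotted line at 6 has 57 orange and 18 blue points at or above it.

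The 12 largest falls among genes with a mean of 6 or more in the higher group included several endoderm genes. S100A14, a calcium-binding protein of epithelia, stood at 7.43, 8.0 and 7.32 in hESC and at 2.16, 3.03 and 3.33 in DFNB, and fell by 4.74 ± 0.41 (adjusted p = 0.0173). PSMB8, a catalytic subunit of the immunoproteasome, went from 5.59, 6.02 and 6.78 to -1.71, 0.41 and 2.15. In both genes every DFNB array lay below every hESC array by a wide gap. The apolipoproteins APOB and APOA1, products of yolk sac endoderm and liver, fell as well: APOB from 8.91, 7.21 and 5.83 to 4.86, 3.24 and 2.21, and APOA1 from 10.60, 10.40 and 8.50 to 6.76, 7.13 and 6.02. Both were lower in DFNB within each line, and both were lowest in Shef1 at day 0 and at day 14. GATA4, a transcription factor of endoderm and heart, went from 7.40, 6.58 and 4.98 to 4.23, 2.96 and 2.86. Its fall of 2.97 ± 0.44 had adjusted p = 0.0466, and it was not called once values below 4 were set to 4.

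Enzymes and membrane proteins were also among these 12. AKR1C3, an aldo-keto reductase of steroid and prostaglandin metabolism, went from 6.51, 6.0 and 6.60 to 2.27, 2.61 and 3.46. GATM, which makes the precursor of creatine, went from 8.50, 9.49 and 8.65 to 6.36, 6.23 and 6.74, and HTATIP2 from 7.83, 8.81 and 8.04 to 4.47, 6.47 and 4.94. The hESC arrays lay within 1 unit of each other in each of these, and no DFNB array reached them. EDNRB, the endothelin receptor B, stood at 7.90, 8.78 and 8.95 and then at 5.48, 5.85 and 6.81. KCNE3, an accessory subunit of potassium channels, went from 6.63, 6.43 and 5.81 to 4.31, 4.18 and 2.67. PLEKHG4 fell by 3.38 ± 0.49 and ENPP5, of the ectonucleotide pyrophosphatase family, by 2.72 ± 0.41. These 12 falls ran from 2.44 to 5.85 in size with adjusted p from 0.0173 to 0.0469. Without the block 3 of these 12 were called, AKR1C3, GATM and S100A14.

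The 12 largest rises among genes that reached a mean of 6 ran from 4.30 to 9.29 in size, with adjusted p from 0.000758 to 0.0468. CLSTN2, a cadherin-related protein of the synapse, stood at 2.30, 3.90 and 3.72 in hESC and at 8.34, 9.14 and 8.24 in DFNB, a rise of 5.26 ± 0.64 (adjusted p = 0.0356). TMEFF2, a transmembrane protein with follistatin-like domains, went from 3.39, 3.43 and 5.53 to 10.58, 8.05 and 9.49. ADAMTS18, a secreted metalloprotease, went from 4.59, 4.08 and 4.14 to 9.99, 8.53 and 7.99. In each of these genes the lowest DFNB array exceeded the highest hESC array by more than 2 units. LGI1, a secreted protein of neurons, rose by 4.35 ± 0.63, from 4.39, 4.71 and 1.84 to 7.86, 8.03 and 8.11. TSPAN11, a tetraspanin, ended at 6.61, 6.16 and 6.17 from 0.88, 2.23 and 0.95.

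Several large rises ended at a lower level in H14 than in the other lines. FOXE3, a transcription factor of the lens, went from -3.14, -2.36 and -2.65 to 8.53, 3.32 and 7.89. HSD17B2, which oxidises estradiol and testosterone, went from -1.88, -3.15 and 1.83 to 9.85, 3.21 and 8.78, and MMRN1, multimerin of platelets and endothelium, from -0.44, 1.03 and 2.62 to 7.27, 4.07 and 8.50. In each, H14 stayed near the array median while Shef3 and Shef1 were far above it. KCNIP4, a protein that binds potassium channels, went from 0.64, -0.09 and 2.96 to 8.0, 3.86 and 6.81, and ERICH5 from 3.21, 1.42 and 4.82 to 9.51, 5.74 and 9.13. In KCNIP4 and ERICH5 the end level was again lowest in H14, but the change itself was smallest in Shef1, by a narrow margin. These changes mostly start from levels where the values are noisy, and FOXE3, HSD17B2, KCNIP4 and MMRN1 were not called with values below 4 set to 4. ZFHX4-AS1, a long non-coding RNA antisense to ZFHX4, rose by 6.99 ± 0.26 with adjusted p = 0.000758, from 0.54, -0.25 and -0.88 to 7.70, 6.29 and 6.38. The zinc finger and homeobox gene ZFHX4 itself, chosen after its values were seen, rose from 5.52, 5.60 and 3.69 to 8.65, 7.97 and 5.87. The sources used here do not say how far the probes separate the strands, so the 2 rises are not independent measurements for certain.

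**Figure D2:**
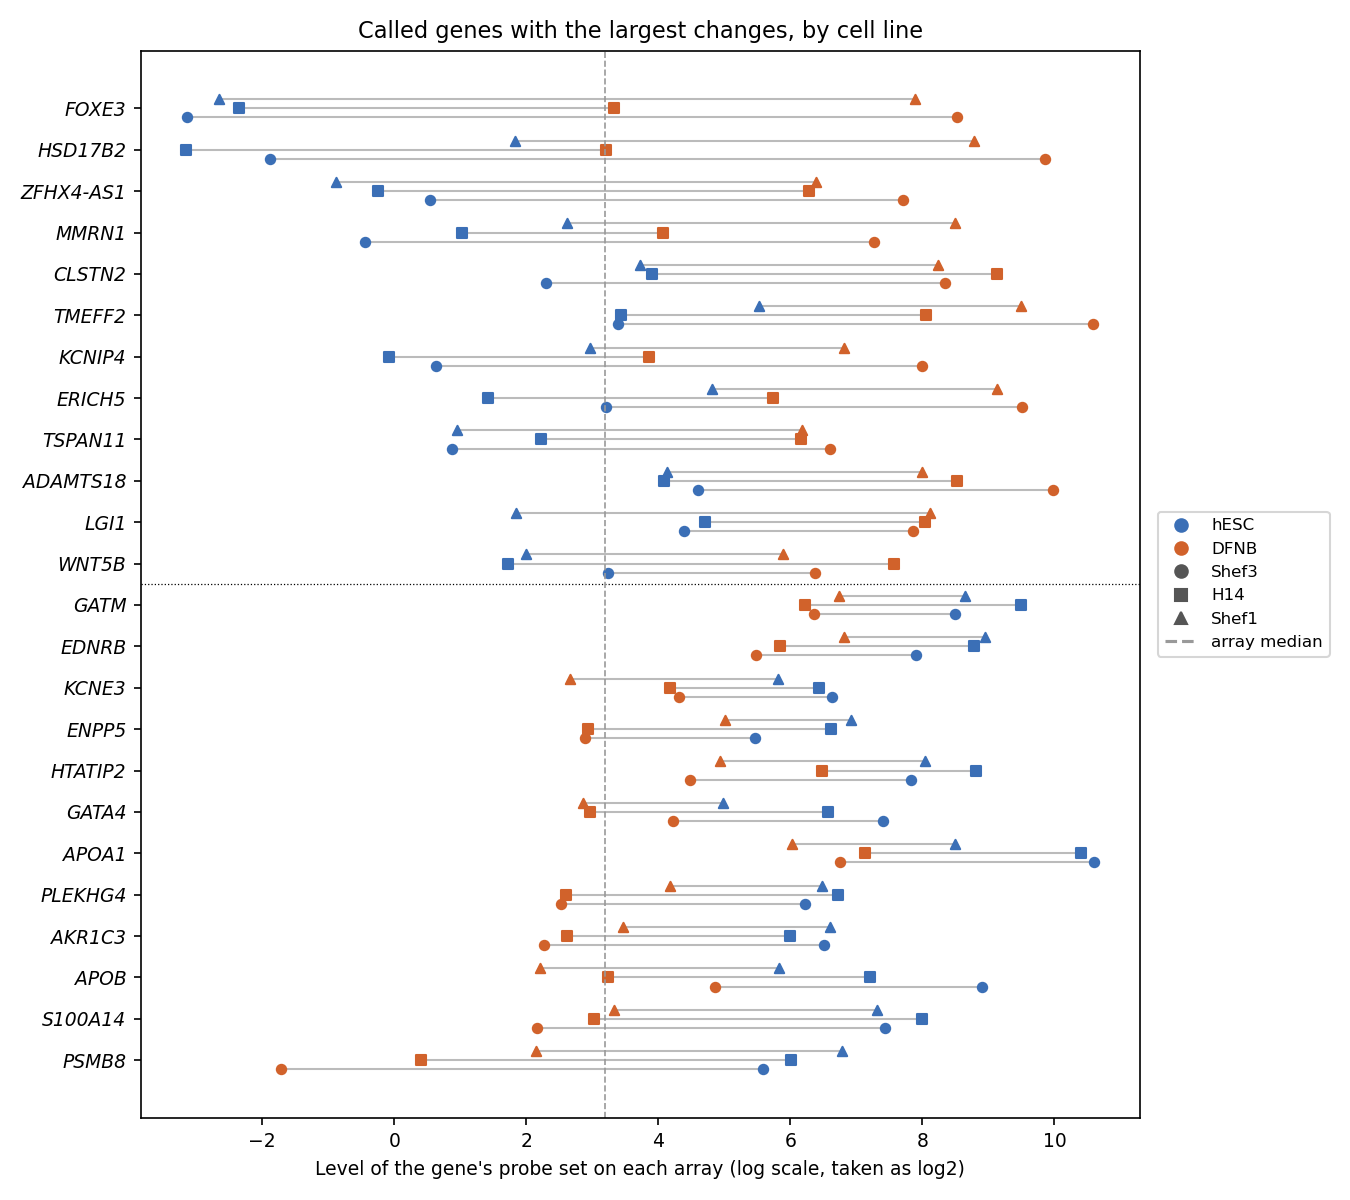
Level on each array (log2 scale) for the 12 largest rises, above the dotted line, and the 12 largest falls for called genes with a mean of 6 or more in the higher group. Blue is hESC and orange DFNB, the marker shape gives the cell line, grey lines join the arrays of a line, and the dashed line is the array median of 3.20. Blue and orange markers do not overlap in any of the 24 genes.

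Of the 42 gene lists, that of pluripotency genes had the median furthest from 0 with all lines included, and also the widest range between lines. Of 35 listed genes 32 were measured, and their median change was -2.60 against -0.19 for all genes. DNMT3L, which assists the enzymes of de novo methylation, went from 4.87, 5.47 and 7.09 to -4.50, -3.92 and -2.41, and DPPA5, a marker of the pluripotent state, from 2.82, 1.97 and 2.34 to -2.13, -2.07 and -2.76. They were the 2 members called lower, against 0.45% of all genes, at limma adjusted p = 0.000758 and 0.00929, and none was called higher. Both fell by nearly the same amount in every line, Shef1 included, but DPPA5 was below 4 throughout. Of the 32, 19 had every DFNB array below every hESC array, against 14.3% of all genes. Line by line, the list's median came to -4.68 (Shef3), -2.80 (H14) and -0.53 (Shef1), without Shef1 it was -3.78, and without Shef3 it was -1.70, nearer to 0 than the -2.49 of the endoderm list. The mean level of the list was 8.0 to 8.91 on the hESC arrays and 3.16 to 6.96 on the DFNB arrays, with no overlap.

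**Figure D3:**
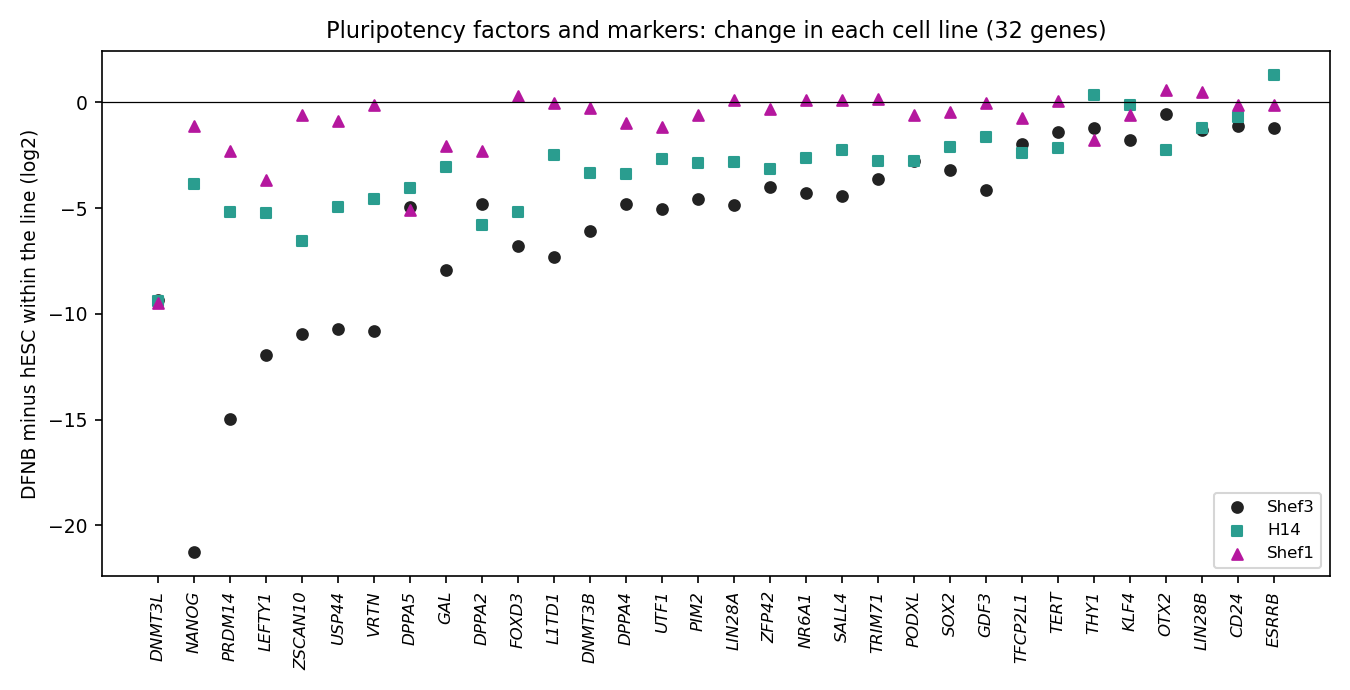
Change within each cell line, DFNB minus hESC (log2), for the 32 measured pluripotency genes, ordered by their mean change. For DNMT3L and DPPA5 the 3 markers lie close together, whereas for NANOG they lie at -21.27 in Shef3, -3.88 in H14 and -1.10 in Shef1.

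Related lists had smaller median changes, -0.68 for DNA methylation, -0.72 for RNA-binding growth-state and -0.69 for NODAL genes. The median of the early embryo and germline list was -0.09, and 0.16 with quantile normalization, so no direction is given for it. Of its 15 genes 13 were below 4 on all 6 arrays, so this list could show little change. Over all genes 0.45% were called lower. NLRP7, an inflammasome-family gene of oocyte and embryo, fell from 3.70, 4.71 and 5.30 to -3.61, -3.26 and -2.02 (adjusted p = 0.00625), and was the only 1 of 15 early embryo and germline genes called. It was not called with values below 4 set to 4, and nor was DNMT3L. DNMT3L was also the only call among 13 writers and erasers of DNA methylation. Among 12 RNA-binding genes of the growth state none was called, and LIN28A and TRIM71 differed by -2.53 ± 1.13 and -2.08 ± 0.91. Of 16 NODAL pathway genes none was called either. Every DFNB array lay below every hESC array for 8 of them and above for 1, against 14.3% and 7.8% of all genes. Among the 8 were LEFTY1, a NODAL antagonist, and CER1, with LEFTY1 at -1.43, 3.94 and 7.54 after 10.52, 9.18 and 11.20. LEFTY1 and CER1 were called with values below 4 set to 4.

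Endoderm genes stood well above the array median in the day 0 cultures, and several fell. Of 23 measured genes of definitive and visceral endoderm 4 were called lower (APOB, APOA1, GATA4 and HHEX) and 0 higher. Over all genes 0.45% were called lower and 0.506% higher. The list's median change was -2.35. HHEX, a homeobox factor of foregut endoderm, fell from 5.18, 5.95 and 5.94 to 2.76, 3.24 and 4.28. Every DFNB array lay below every hESC array for 13 of the 23, against 14.3% of all genes. The median was -2.41, -2.15 and -1.66 in the 3 lines, beside -0.31, -0.29 and 0.04 over all genes. Unadjusted for that, the shift was smallest in Shef1 here too, but the list's range over the lines was narrower than for the pluripotency genes. Its mean level was 6.37 to 7.41 on the hESC arrays and 4.12 to 4.49 on the DFNB arrays. Of the 19 mesoderm and primitive streak genes none was called, and their median change was -0.48 (-0.13, -0.27 and 0.05 by line). ISL1 and NKX2-5 had the largest differences, at 3.71 ± 0.86 and 3.47 ± 1.10. In all 3 lines 6 of the 19 were higher and 5 lower, against 15.9% and 25.9% of all genes.

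Preplacodal and otic genes held 4 called members of 30 measured, all higher, against 0.506% of all genes. The list's median change was 1.19. EYA2, a transcriptional partner of sine oculis homeobox factors, rose from 1.28, 0.89 and 0.97 to 6.92, 5.55 and 4.32. TFAP2A, a factor of the neural border and surface ectoderm, rose from 6.06, 7.43 and 5.79 to 9.06, 9.40 and 8.43 (adjusted p = 0.0324). The 3 day 14 values of TFAP2A lie above all of day 0. DLX5, a homeobox gene of the placodes, rose by 3.02 ± 0.47 at the edge of the threshold (adjusted p = 0.05 after rounding) and stayed low, at 3.26, 4.66 and 4.39. The BMP ligand BMP7 rose by 1.94 ± 0.29, to 7.75, 7.78 and 7.82. With values below 4 set to 4, EYA2 and DLX5 were not called. Of the 30 genes 14 had all DFNB arrays above all hESC arrays, against 7.8% of all genes. Genes of hair cells and inner ear products gave no call among 19, and 15 of them were below 4 on all 6 arrays.

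Neural crest and border genes had 2 of 18 called higher, TFAP2A and MSX2, against 0.506% of all genes. TFAP2A is also counted among the preplacodal genes and MSX2 among the BMP genes. The median of the border list was 1.29, which was 0.71 without Shef1 and 0.74 with probe sets averaged. MSX2, a homeobox target of BMP signals, rose from 7.78, 6.97 and 5.39 to 10.30, 9.33 and 8.38. Lens genes had 2 of 22 called, FOXE3 and PROX1, a homeobox factor of lens fibres, which rose from 1.51, 0.52 and 1.75 to 6.76, 4.18 and 6.21. As with FOXE3, the DFNB value of PROX1 was lowest in H14. The lens list's median of 1.33 covered 2.40 in Shef3, 0.46 in H14 and 0.17 in Shef1, and it was 0.38 without Shef3. In the eye field and forebrain list 1 of 21 was called, EMX2, a factor of the dorsal forebrain, from 2.52, 3.24 and 2.73 to 5.39, 6.60 and 5.05. The median of that list was 0.99, and 0.60 without Shef1. PROX1 and EMX2 were not called with values below 4 set to 4.

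Markers of later neural stages did not pass the test as genes. None of 32 neuronal genes, 25 neural stem and radial glia genes or 12 glial genes was called, against 0.956% of all genes. Their median changes were 0.07, 0.24 and 0.13. The neural stem median was 0.71 without Shef3 and 0.10 without Shef1, and the glial median turned to -0.25 without Shef3 and to -0.10 without Shef1, so no direction is given for glia. DCX, a microtubule protein of young neurons, stood at 0.78, 6.20 and 4.90 and then at 7.59, 8.52 and 6.69, higher on every DFNB array, with adjusted p = 0.179. CHGA, of the same list, went the other way, from 6.56, 5.77 and 5.88 to -0.08, 3.23 and 4.05. It was lower on every DFNB array (limma adjusted p = 0.11) and was called with values below 4 set to 4. Of the 32 neuronal genes 8 were higher and 7 lower in all 3 lines. DACH1, a cofactor of placode and eye regulators, differed by 2.72 ± 0.46 with adjusted p = 0.0564, and was called with values below 4 set to 4.

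Some surface and guidance molecules of neurons rose. CLSTN2, CNTN6 and CNTN5 were called among 32 genes of neural adhesion and synapse organisation, with a median of 0.75 over the list. The contactin CNTN6 went from -1.33, 0.30 and 0.20 to 6.42, 5.82 and 5.76, and CNTN5 from -0.87, 0.48 and 0.56 to 4.87, 3.26 and 4.18. Both contactins start low in every line, and neither was called with values below 4 set to 4. Of 33 axon guidance genes 3 were called higher, with a median of 0.95 over the list. Over all genes 0.506% were called higher. The netrin receptor UNC5C rose from 4.13, 2.47 and 3.02 to 7.57, 7.84 and 6.24. SLIT2, a repellent ligand, rose from 7.07, 6.89 and 5.77 to 9.70, 9.15 and 7.99, and the ephrin EFNA5 from 7.82, 7.33 and 7.57 to 10.06, 9.32 and 9.29. SLIT2 and EFNA5 were thus already well expressed at day 0, and their rises of 2.37 ± 0.26 and 1.98 ± 0.27 were of like size in the lines. Among 13 neurotrophic receptors GFRA1, a co-receptor for GDNF, rose from 2.07, 3.89 and 3.70 to 7.0, 8.20 and 7.30.

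In the WNT pathway the called ligands were WNT5B and WNT2B, 2 of 15 measured, both higher, against 0.506% of all genes. WNT2B rose from 4.63, 3.53 and 3.37 to 9.15, 6.67 and 7.32 (adjusted p = 0.0173), and WNT5B from 3.23, 1.72 and 1.99 to 6.38, 7.57 and 5.89. Of 30 receptors, antagonists and targets 3 were called, all higher. The receptors FZD1 and FZD10 rose by 2.95 ± 0.33 and 2.42 ± 0.33, FZD1 to 8.02, 8.29 and 7.94. APCDD1, an inhibitor of WNT signalling, rose from 6.66, 6.12 and 4.50 to 8.96, 8.72 and 7.69. Lower in all 3 lines were 3 ligands and 5 of the other genes, none of them called, against 25.9% of all genes. Higher in all 3 lines were 5 ligands and 15 of the other genes, against 15.9% of all genes. The median change was 1.12 over the ligands and 0.72 over the other genes, but the ligand median was -0.04 in Shef1.

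Other signalling lists held few calls, beside 0.956% of all genes. BMP genes had 2 of 24 called higher, BMP7 and MSX2, with a median of 0.74. In the retinoic acid list MEIS2, a homeobox factor that responds to retinoids, was the single call of 15, from 7.69, 8.21 and 7.65 to 10.57, 10.74 and 9.75. None of 22 NOTCH genes was called, although HEY1 and HEY2, targets of the pathway, differed in opposite directions by 1.97 ± 0.38 and -1.82 ± 0.29 (adjusted p = 0.0668 and 0.0525). Both were called with values below 4 set to 4. None of 16 hedgehog genes was called, with GAS1, a hedgehog co-receptor, at 2.75 ± 0.57 and the ligand IHH at -3.47 ± 0.90. FGF ligands (19), FGF receptors (10) and FGF feedback genes (18) gave no call. The receptor FGFR4 stood at 7.03, 7.63 and 6.06 in hESC and at 2.53, 3.55 and 5.41 in DFNB, with adjusted p = 0.101. The sign of the median flipped with quantile normalization for the FGF receptors (-0.14 to 0.07) and feedback genes (-0.14 to 0.01), so no direction is given for them.

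Matrix lists held single called genes, beside 0.956% of all genes. COL2A1, a collagen of cartilage, notochord and early neuroepithelium, rose from 7.60, 7.48 and 4.82 to 10.48, 10.59 and 9.49, the 1 call among 26 collagens. ACTA2, smooth muscle actin, rose from 8.71, 8.60 and 8.30 to 11.38, 11.47 and 11.16, the 1 call among 30 genes of other matrix and mesenchyme, whose median was 1.09. The 3 lines of ACTA2 were tightly grouped both at day 0 and at day 14. With probe sets averaged ACTA2 differed by 1.77 and was not called. Among 31 genes of epithelial adhesion S100A14 was the only call, and the median was -0.71.

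Markers of other cell types were read beside these lists. Their mean levels were 2.13 to 2.70 in hESC and 2.16 to 2.28 in DFNB for endothelium and blood (17 genes). They were 4.05 to 4.73 and 3.60 to 4.17 for striated muscle (15), and 3.15 to 4.15 and 3.39 to 4.71 for trophoblast (18). In the trophoblast list VTCN1 went from 3.63, 2.86 and 1.25 to 8.84, 7.65 and 2.97, and KRT7 from 6.54, 5.89 and 3.71 to 8.32, 9.76 and 5.25. Of the 18 trophoblast genes 6 were higher in all 3 lines, VTCN1 and KRT7 among them, and 4 were lower. With probe sets averaged KRT7 differed by 0.25. The keratin and epidermis list (17) spanned 3.39 to 3.80 in hESC and 3.41 to 5.99 in DFNB, where KRT5, a basal keratin, stood at -2.09, 6.18 and -2.25. No gene of the trophoblast or keratin list was called. Among the DFNB arrays KRT5 was thus raised only on that of H14, a single array. On the day 14 arrays with FGF3 and FGF10 it stood at 5.62, 3.21 and -2.73, highest in Shef3. LYZ (lysozyme) and NPPA (a natriuretic peptide) fell, each the only call of the blood and muscle lists, beside 0.45% of all genes called lower. Both were at most 4.89 on any array. The part of such cells in the results above was not tested.

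Housekeeping and growth lists had medians nearer to that of all genes. None of 32 cell cycle genes, 15 CDK inhibitors and p53 targets, 23 glycolysis and hypoxia genes or 18 ribosomal protein genes was called. Over all genes 0.956% were called, and the medians of these lists were -0.55, 0.03, -0.54 and -0.32. Without Shef3 the cell cycle, glycolysis and ribosomal medians were -0.24, -0.31 and -0.19, and without Shef1 the cell cycle median was -1.01. All 18 ribosomal protein genes and 13 of the 23 glycolysis and hypoxia genes were lower in all 3 lines, against 25.9% of all genes. Only 1 of the glycolysis genes was higher in all 3. With quantile normalization the ribosomal and glycolysis medians were -0.04 and -0.29, beside -0.03 for all genes. CDKN2A and CDKN2B, inhibitors of the cell cycle, had each DFNB array above each hESC array at differences of 2.83 ± 1.32 and 2.87 ± 1.04, but did not pass. SMARCD3, a subunit of the SWI/SNF remodeller, rose by 1.85 ± 0.25, the 1 call among 23 chromatin remodeller and Polycomb genes, and was not called with probe sets averaged (0.97). None of 23 HOX and regional factors and none of 16 imprinted genes was called, with medians of 0.57 (0.28 without Shef1) and 0.35. DHX58, an antiviral RNA sensor, fell by 3.70 ± 0.45 at levels that never exceeded -0.04.

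**Figure D4:**
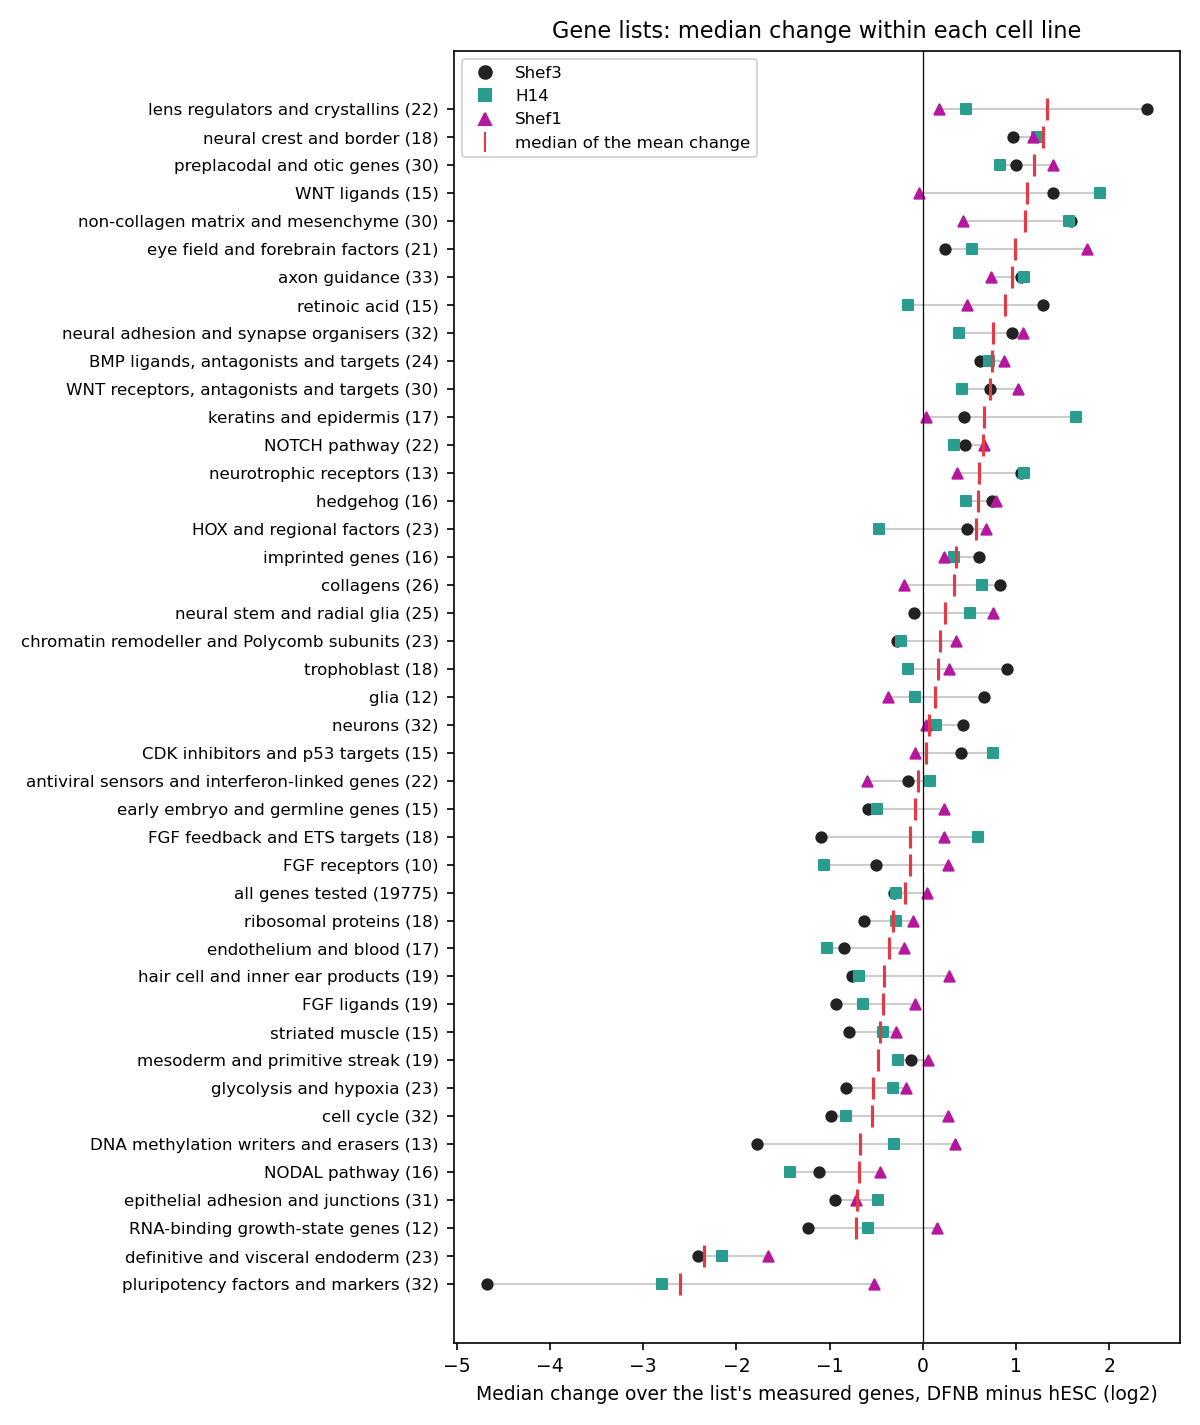
Median change over the measured genes of each list (number in brackets), DFNB minus hESC (log2), within Shef3, H14 and Shef1, with a red bar for the median of the mean change. The pluripotency list spans -4.68 to -0.53 and the endoderm list -2.41 to -1.66, while the axon guidance list spans 0.73 to 1.08.

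The size of the response differed between lines, which 1 array per line and group allows only as a description. Over 9172 genes with a mean of 6 or more in either group, 370 rose and 464 dropped by 2 or more in Shef3, 319 and 333 in H14, and 157 and 79 in Shef1. Among the called genes the lines were more alike, with median changes of 2.99, 2.87 and 2.78 on the higher side and -2.91, -3.36 and -2.98 on the lower. A call asks for like changes in the 3 lines, so this likeness follows from the choice. Shef1 had the smallest change of the 3 lines in 85 of the 189, Shef3 in 51 and H14 in 53. The genes in which the change in Shef1 lay furthest from the mean of the other lines included NANOG (above) and APELA, a peptide ligand of the apelin receptor, which stood at 11.11, 10.21 and 10.65 in hESC and at -2.64, 2.92 and 9.45 in DFNB. POU5F1P3 and POU5F1P4, pseudogenes of OCT4, showed the same order, POU5F1P3 ending at -7.67, 7.58 and 10.11. Their probe sets may read the near-identical POU5F1, so their identity is uncertain. SCGB3A2, a secretoglobin, ended at -5.77, 1.13 and 5.96 after 7.70, 7.32 and 6.92. In these 5 genes Shef3 was lowest and Shef1 highest at day 14. The distance rests largely on Shef3: the change was -21.27, -3.88 and -1.10 for NANOG and -19.36, -3.76 and -0.88 for POU5F1P3, with H14 nearer to Shef1. MGP, matrix Gla protein, ran the other way and ended at 10.34, 4.95 and 2.74 after -4.97, 0.29 and 4.40. The Shef1 arrays are also those with the high poly-A spike-ins, and the part of that in these differences was not tested.

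Promoter CpG content was compared between the 2 sides. In the 250 bases before the start, the observed number of CG over that expected from C and G content had a median of 0.802 in the 45 called higher genes with 1 start in the RefSeq table. It was 0.616 in the 49 called lower genes and 0.754 in 11469 of all genes tested. A ratio above 0.6 was found in 77.8% of the higher genes, 51.0% of the lower and 65.0% of all. Genes of higher level have more CG in general: among those with a mean of 6 or more in either group the median was 0.855 over 5371 genes, 0.805 in the 22 called higher and 0.616 in the 9 called lower. The median of the called lower genes thus lay below the rest at both cuts in level, as a description with no test. Single genes ran the other way, with a ratio of 0.315 for CNTN6, which rose, and 0.662 for DPPA5, which fell.

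**Figure D5:**
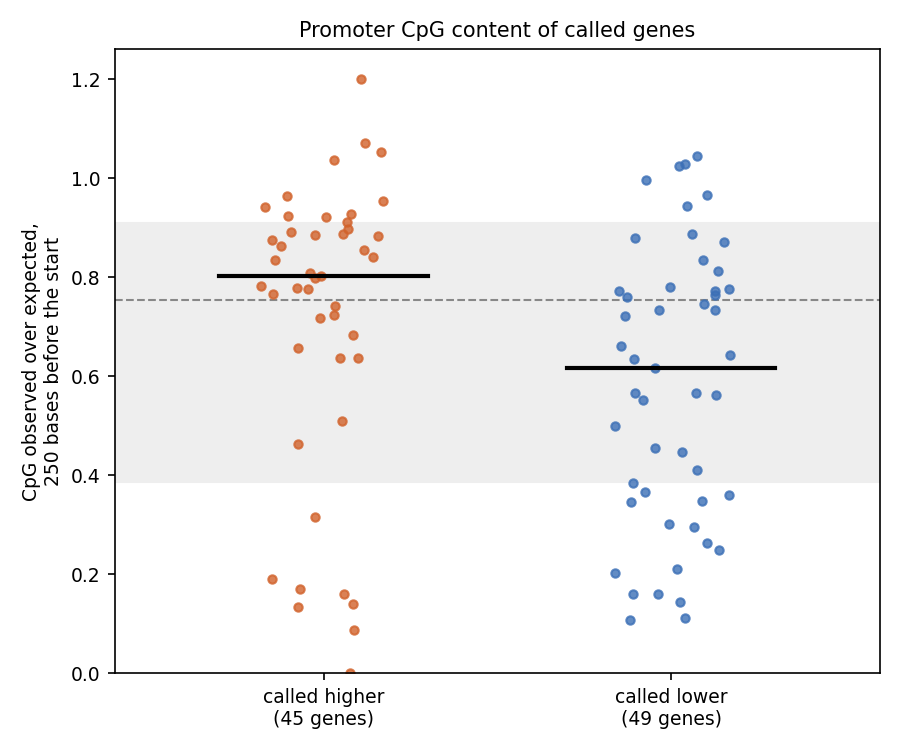
Observed over expected CG in the 250 bases before the start for the 45 called higher and 49 called lower genes with 1 start in the table, each point 1 gene, with sideways scatter added for legibility. Black bars are the medians, 0.802 and 0.616, and the dashed line and grey band are the median (0.754) and quartiles (0.387 and 0.91) of 11469 genes.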

How the data were processed

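Expression was measured on 9 Affymetrix 3′ arrays, 1 per line and group, from 200 ng of total RNA per the labels' protocols. The authors deposited log values, read here as log2 although no source states the base, with a median of 3.20 on every array. Their software, background correction and probe set summary are not given in the sources used. Arrays have no read depth. Precision depends on how many arrays there are and on the level of the gene, since low values spread more.

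The platform annotation gave a single symbol for 41091 of 54675 probe sets, several for 1801 and none for 11721, beside 62 controls. Entrez identifiers served to update symbols (41037 probe sets matched). A gene was represented by whichever of its probe sets averaged highest on the 9 arrays, and 10523 of 19775 genes had a choice. Among called genes 93 had several, 27 of these with at least 1 probe set of opposite sign, but 0 with an opposite one at a level of 6 or more.

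The comparison used limma 3.58.1 under R 4.3.3 (lmFit and eBayes, group means plus cell line, all 9 arrays), with Benjamini-Hochberg adjustment over all genes and calls at an adjusted p below 0.05. The residual degrees of freedom were 4 and the prior 2.46. The procedure was tested on simulated data. Arrays are paired by the cell line in their labels. As a check of the pairing, DFNB and hESC deviations from their group means correlated at 0.105, 0.0861 and 0.338 for the same line (Shef3, H14, Shef1), and at most at 0.0795, 0.173 and -0.133 for another. For H14 the correlation with another line was the higher, and for Shef3 both were close. The check thus sets apart only Shef1, and the pairing of the other lines rests on the labels.

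The comparison and the 42 gene lists were chosen with earlier results of these data known, so lists are described by counts and medians with no test. List members without a value are not analysed here. Named genes are the 12 largest rises and falls among called genes with 1 sign in all lines and a mean of 6 or more in the higher group, and up to 4 called members of each list, or else the 2 largest differences as values. To these were added 8 markers of the labelled cells and the 6 genes in which Shef1 differs most. Alternatives were a fit without the block, a fit to 6 arrays, quantile normalization, leaving out genes with a mean below 4, setting values below 4 to 4, averaging probe sets, and leaving out each line. Promoter sequences came from RefSeq (GRCh38.p14).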

Additional observations from a re-analysis of the deposited data

Results flagged for a closer look

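In several lists the median change in Shef1 had the opposite sign to that in both other lines. The difference between lines was not tested, since each line has 1 array per group. The median in Shef1 was above 0, and below 0 in Shef3 and H14, for all genes tested (0.04), early embryo and germline genes (0.23), DNA methylation genes (0.34), RNA-binding growth-state genes (0.15), mesoderm genes (0.05), hair cell products (0.28), FGF receptors (0.27), cell cycle genes (0.27) and chromatin remodeller and Polycomb genes (0.35). It was below 0 in Shef1, and above 0 in the other lines, for collagens (-0.20), WNT ligands (-0.04) and CDK inhibitors with p53 targets (-0.08). Several of these lie close to 0. The median over all genes was -0.31 in Shef3 and -0.29 in H14, and the lists were not adjusted for it. Among the named genes LIN28B differed by 0.48 in Shef1 against -1.31 in Shef3 and -1.22 in H14, and MGP by -1.66 against 15.31 and 4.65.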

How the results depend on the processing

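All 189 called genes that an alternative tested kept their sign in it, but the number called did not hold. The alternatives reuse the arrays that chose the 189, so the kept sign follows largely from the choice. Without the replicate block the count was 40 (23 higher, 17 lower), and 39 of these belonged to the 189. With the replicate block in a fit to the 6 arrays alone 4 were called (CBLC, DNMT3L, NLRP7 and ZFHX4-AS1), 1 higher and 3 lower. The median standard error was 0.38 with all 9 arrays, 0.48 without the block and 0.43 with 6 arrays. Without dim genes, 520 of 11502 were called, 325 higher and 195 lower, and with values below 4 set to 4, 426 of 13406, 216 higher and 210 lower. Of the 189, 90 of the 90 tested were called in the first of these and 83 of 151 in the second. Named genes outside the 189 also gained a call. Without dim genes these were 8, COCH, DACH1, GAS1, HEY1, HEY2, IRX5, KRT7 and LEFTY1. With values below 4 set to 4 they were 6, CER1, CHGA, DACH1, HEY1, HEY2 and LEFTY1. Leaving out a line gave between 0 and 0 calls, with 3256, 2136 and 3988 genes at an unadjusted p below 0.05 without Shef3, H14 and Shef1. Quantile normalization gave 184 calls and moved the median of all genes from -0.19 to -0.03. It moved the share of higher calls from 52.9% to 60.9%, and averaging probe sets gave 236 calls, 131 of them among the 189. Under quantile normalization 149 of the 189 were called, and DHX58, EDNRB, HTATIP2, KCNE3 and NPPA were not. With values below 4 set to 4, where genes below 4 on all arrays drop out, the median was 0.67 for preplacodal genes, -1.47 for endoderm, 0.50 for lens, 0.33 for neural adhesion and 0.55 for eye field genes. With probe sets averaged it was 0.81 for lens and 0.47 for neural adhesion. The share was 57.5% without the block, 25% with 6 arrays, 62.5% without dim genes and 50.7% with the floor at 4. Of 105 named genes, 3 changed sign under some setting, none of them called: FOSL1, which ran from -4.34 to 0.28 when a line was left out (0.28 without Shef3), NES, which ran from -0.40 to 0.72 (0.72 without Shef3) and was 0.26 with quantile normalization and 0.20 with averaged probe sets, and VIM, which ran from -0.11 to 0.23 (-0.11 without H14). The causes were not tested. Low signal limits the calls with both means below 4.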

Other observations

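Of the 189 called genes 154 belong to none of the lists, and the following were chosen after their values were seen. PDZK1, a scaffold of apical membranes, stood at 5.83, 5.94 and 5.47 in hESC (Shef3, H14, Shef1) and at -0.48, -0.61 and -2.77 in DFNB, and was called without the line block as well. CLDN18, a tight junction claudin, fell from 5.67, 5.25 and 5.52 to 2.05, 2.76 and 3.50. In both genes the hESC arrays were close together and no DFNB array came near them. IGFBP6, which binds insulin-like growth factors, fell by 1.96 ± 0.28 and PTGR1, a reductase of prostaglandins, by 2.32 ± 0.35. PSMB9, a second immunoproteasome subunit, fell from 3.16, 3.41 and 4.99 to -1.22, -2.47 and 2.32, but it was not called with values below 4 set to 4. TAP1, the peptide transporter encoded beside PSMB8 and PSMB9, differed by -0.86 ± 0.94 and did not pass (limma adjusted p = 0.616).

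Transcription factors and adhesion genes were among the rises outside the lists. MECOM, a zinc finger factor, rose from 3.39, 3.54 and 3.45 to 7.13, 7.43 and 6.13, and ZFHX3 from 6.58, 6.65 and 6.09 to 9.35, 9.24 and 8.12. TENM4, a teneurin of neural connections, rose from 5.29, 5.44 and 4.81 to 8.02, 7.51 and 7.87. All 3 had narrow hESC ranges and separate groups. NEDD9, a scaffold of focal adhesions, rose by 2.72 ± 0.23 to 9.31, 8.98 and 10.07, and PCP4, which binds calmodulin, by 3.35 ± 0.33 to 7.42, 6.46 and 7.27. The long non-coding RNA OTX2-AS1 rose from -0.45, 1.72 and 2.01 to 6.0, 5.15 and 5.02 (limma adjusted p = 0.0494) but was not called with values below 4 set to 4, while OTX2 itself stood at 9.44, 10.20 and 9.68 and then at 8.87, 7.93 and 10.26 and did not pass. Probe sets of antisense and overlapping genes were not checked for the strand they read.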
